A study of Mus musculus with 2 samples.

Results

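Cd80, Cd86, Cd28, Ctla4, Cd40, Cd40lg, Icos and Icosl are the genes of 3 costimulatory systems that pass between T cells and antigen-presenting cells. They were taken by symbol from both count matrices of the series, and all 8 were present, each on 1 row of 32589 genes. The level of each gene was read in cell classes gated on marker genes, in a control library (Ctrl) and a treated library (BiDT), with receptors and ligands side by side.

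CD28 on the T cell delivers the second signal that a T cell needs beside its antigen receptor, and its ligands CD80 and CD86 sit on dendritic cells, macrophages and B cells. CTLA4 binds the same ligands more tightly than CD28, strips them from the presenting cell and is most abundant on regulatory T cells. ICOS belongs to the same receptor family, appears after activation and binds ICOSL. CD40 runs the other way. It sits on the presenting cell, is engaged by CD40 ligand (gene Cd40lg) on activated CD4 T cells, and is known to raise CD80, CD86 and interleukin 12 in dendritic cells.

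Both groups carried tumours of MC38, a colon carcinoma line of mice, taken on day 19 after inoculation. Live cells positive for CD45, which marks leukocytes, were sorted from them. Ctrl and BiDT have 1 library each, both labelled batch 1, made from 5 pooled biological replicates, so differences between them are descriptions of 2 libraries, without a test. BiDT is not spelled out in the labels; the title of the series speaks of an anti-TIM3-IFN protein, an antibody joined to an interferon. The strain, age and sex of the mice, the dose, and what Ctrl received are not given in the sources used here. All intervals are at the 95% level and cover counting error only.

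Barcodes numbered 34310 in Ctrl and 34996 in BiDT, with 211047063 and 130313537 unique molecular identifiers (UMIs, each a captured transcript). After filtering, 30415 Ctrl and 31709 BiDT cells remained, with medians of 4172 and 2619 UMIs, and 713 barcodes occurred in both libraries. A gate required UMIs of a lineage panel and few or none of every other panel, and it left 25.4% of Ctrl and 36.9% of BiDT cells without a class. Of 15 gated classes, 12 had at least 50 cells in each library. Check markers that no gate used made 47 pairs of marker and class. In all 47 the marker was more than 2 times above the median of the other classes. The C1q-low and C1q-high phagocytes had the same check markers, and CD8 and conventional CD4 T cells shared all but Ctsw. These markers therefore do not tell the classes within such a pair apart. Malat1, a nuclear RNA, made up 0.410% of the Ctrl and 0.823% of the BiDT UMIs, and cells with over 1% Malat1 were more frequent in BiDT in all 12 classes. Levels are UMIs per 1000000 UMIs of the class (CPM). A share of cells with a UMI was read after each cell was thinned to 1000 UMIs, beside the share among non-immune cells, which should lack the members and had median depths of 10205 and 5432.5 UMIs. A member and class were compared where they had at least 50 UMIs over both libraries, and a level was called higher or lower at 1.5 times. A level below 10% of the highest class in both libraries was marked as in the free-RNA range, since RNA from broken cells can reach every droplet. In pooled counts of this kind, fewer cells of a subset and less RNA per cell within a class cannot be told apart.

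Cd28, Ctla4 and Icos are neighbours, in that order, on chromosome 1 of the RefSeq annotation of GRCm38.p6, and Cd80 and Cd86 lie apart on chromosome 16. RefSeq promoter sequences of that build were matched for 3 of the 8 members. The 250 bases before the annotated start are shown 5′ to 3′, on the plus strand for each gene, because they let a ligand of CD28, the receptor that competes for it and the ligand of ICOS be set side by side. Capitals mark matches on either strand to the motifs GAAANNGAAA (interferon type), TTCNNNGAA (GAS), TGANTCA (AP-1) and the kappa B motif.
Cd80, chr16:38458683-38458932: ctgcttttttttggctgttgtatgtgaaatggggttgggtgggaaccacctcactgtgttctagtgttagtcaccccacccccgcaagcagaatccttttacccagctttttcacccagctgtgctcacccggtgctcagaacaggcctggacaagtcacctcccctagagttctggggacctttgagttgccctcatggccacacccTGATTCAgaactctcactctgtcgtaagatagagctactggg
Ctla4, chr1:60908775-60909024: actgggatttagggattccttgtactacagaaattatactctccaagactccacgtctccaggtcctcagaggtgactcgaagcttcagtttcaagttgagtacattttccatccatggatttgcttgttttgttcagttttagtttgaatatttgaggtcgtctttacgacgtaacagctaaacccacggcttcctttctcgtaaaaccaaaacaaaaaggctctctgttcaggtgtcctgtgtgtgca
Icosl, chr10:78069118-78069367: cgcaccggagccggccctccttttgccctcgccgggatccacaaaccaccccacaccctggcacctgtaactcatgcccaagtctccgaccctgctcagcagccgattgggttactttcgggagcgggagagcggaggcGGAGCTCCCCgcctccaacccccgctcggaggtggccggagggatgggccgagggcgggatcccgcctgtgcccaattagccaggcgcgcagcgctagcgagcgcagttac
The Cd80 window holds 1 AP-1 match, which begins 42 bases before the start, and the Icosl window 1 kappa B match, which begins 111 bases before it. The Ctla4 window holds none of the 4 motifs. The short NFAT core GGAAA, also searched on both strands and not in capitals, has 1 match, which begins 144 bases before the start of Ctla4, and none in the other 2 windows. Among 32851 promoter windows of the same length, 2.98% hold the interferon-type motif, 7.02% the GAS motif, 6.75% the AP-1 motif, 7.25% the kappa B motif and 55.6% the NFAT core. A match is a description of these letters and not a site of binding.

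Cd80 and Cd86, the ligands of CD28 and CTLA4, were both high in migratory dendritic cells, and differed most in neutrophils, where Cd80 was high and Cd86 was not. Cd80 was highest in neutrophils and in dendritic cells of the migratory type (Ccr7, Fscn1 and Ccl22 positive). Neutrophils held Cd80 at 593.0 CPM (549.7 to 638.8) in Ctrl and at 596.1 CPM (566.8 to 626.4) in BiDT. Migratory dendritic cells held it at 413.6 CPM (397.1 to 430.7) and 630.0 CPM (583.6 to 679.1). The 2 classes were apart in Ctrl and overlapped in BiDT. Next came cDC2, the conventional dendritic cells that favour CD4 T cells, with 286.3 and 228.8 CPM, and phagocytes with little C1q, a macrophage complement component, with 260.1 and 277.3 CPM. Phagocytes with much C1q held 144.7 and 158.8 CPM, and cDC1, the dendritic cells that cross-present to CD8 T cells, 144.4 and 70.5 CPM.

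Cd86 had its highest level in migratory dendritic cells, at 438.5 CPM in Ctrl (421.5 to 456.0) and 773.9 in BiDT (722.4 to 828.1). In cDC1 it was 255.7 and 285.3 CPM, and in cDC2 242.8 and 257.6, with overlapping intervals between these 2 classes in each library. C1q-low phagocytes held 214.1 and 305.4 CPM and C1q-high phagocytes 164.4 and 311.2, so that C1q-low cells were ahead in Ctrl while the intervals overlapped in BiDT. Neutrophils held only 114.3 and 113.9 CPM, and their ratio of Cd86 to Cd80 UMIs was 0.193 in Ctrl and 0.191 in BiDT. The same ratio was 1.77 and 4.04 in cDC1. It sets 2 tag counts against each other without correction for length, so that its size is no ratio of molecules, while its change between libraries can be read.

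Cd40, the receptor on presenting cells, was highest in migratory dendritic cells in both libraries. Migratory dendritic cells held 183.7 CPM in Ctrl (172.8 to 195.2) and 293.3 in BiDT (262.0 to 327.4). cDC2 held 85.8 and 87.9 CPM, C1q-low phagocytes 44.8 and 84.6, C1q-high phagocytes 36.5 and 113.0, and cDC1 34.1 and 36.8. C1q-high phagocytes thus stood below cDC2 in Ctrl, while in BiDT the intervals of the 2 overlapped. B cells, which are known to carry CD40, were too few to compare, with 12 cells in Ctrl and 40 in BiDT, and held 0 and 6 UMIs of Cd40.

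Icosl, the ligand of ICOS, was low in every class. Its highest level was 39.0 CPM in Ctrl (30.4 to 49.3) and 30.3 in BiDT (18.5 to 46.8), both in cDC2. Migratory dendritic cells held 30.4 and 27.7 CPM and neutrophils 26.5 and 22.2, and none of these neighbours was separated by its interval. cDC1 held 31.09 and 6.135 CPM, from 31 and 2 UMIs. Conventional CD4 T cells held 20.25 and 15.05 CPM, from 12 and 7 UMIs. C1q-high phagocytes held 10.5 and 9.35 CPM, and they nevertheless supplied 36.4% of all Icosl UMIs in Ctrl and 17.9% in BiDT.

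Ctla4, Icos and Cd28 were highest in regulatory T cells, followed by conventional CD4 T cells. Ctla4 stood at 2144 CPM in regulatory T cells of Ctrl (2033 to 2260) and 1674 of BiDT (1525 to 1833), at 1026 and 1226 in conventional CD4 T cells, and at 452.6 and 348.6 in CD8 T cells. Icos, which marks T cells after activation, was 2110 and 2015 CPM in regulatory, 1148 and 1258 in conventional CD4 and 568.7 and 370.0 in CD8 T cells. The 3 classes did not overlap for either gene in either library. Gamma delta T cells stood between conventional CD4 and CD8 T cells for Icos in Ctrl (839.5 CPM, 733.6 to 956.4), and below CD8 T cells for Icos in BiDT and for Ctla4 in both. Cd28 had the same order with a smaller span, at 346.3 and 427.4 CPM in regulatory, 288.6 and 333.3 in conventional CD4 and 205.0 and 214.0 in CD8 T cells, and the first 2 of these overlapped. NK cells held 104.4 and 106.1 CPM of Cd28, which is 46.9% and 47.3% of the level of the 3 T cell classes together. The 4 T markers Cd3g, Trbc2, Lat and Bcl11b summed to 13.7% and 11.98% of the T cell level in the same NK cells.

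Cd40lg, the ligand of CD40, was a gene of conventional CD4 T cells. They held 55 UMIs in Ctrl and 58 in BiDT, or 92.8 CPM (69.9 to 120.8) and 124.7 CPM (94.7 to 161.2). CD8 T cells held 17 and 10 UMIs, or 2.52 and 0.969 CPM, and regulatory T cells 1 and 3 UMIs. The 3 dendritic classes had 0 UMIs in both libraries. For migratory dendritic cells a count of 0 allows up to 0.524 CPM in Ctrl and 2.77 CPM in BiDT, at 3 UMIs.

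**Figure D1:**
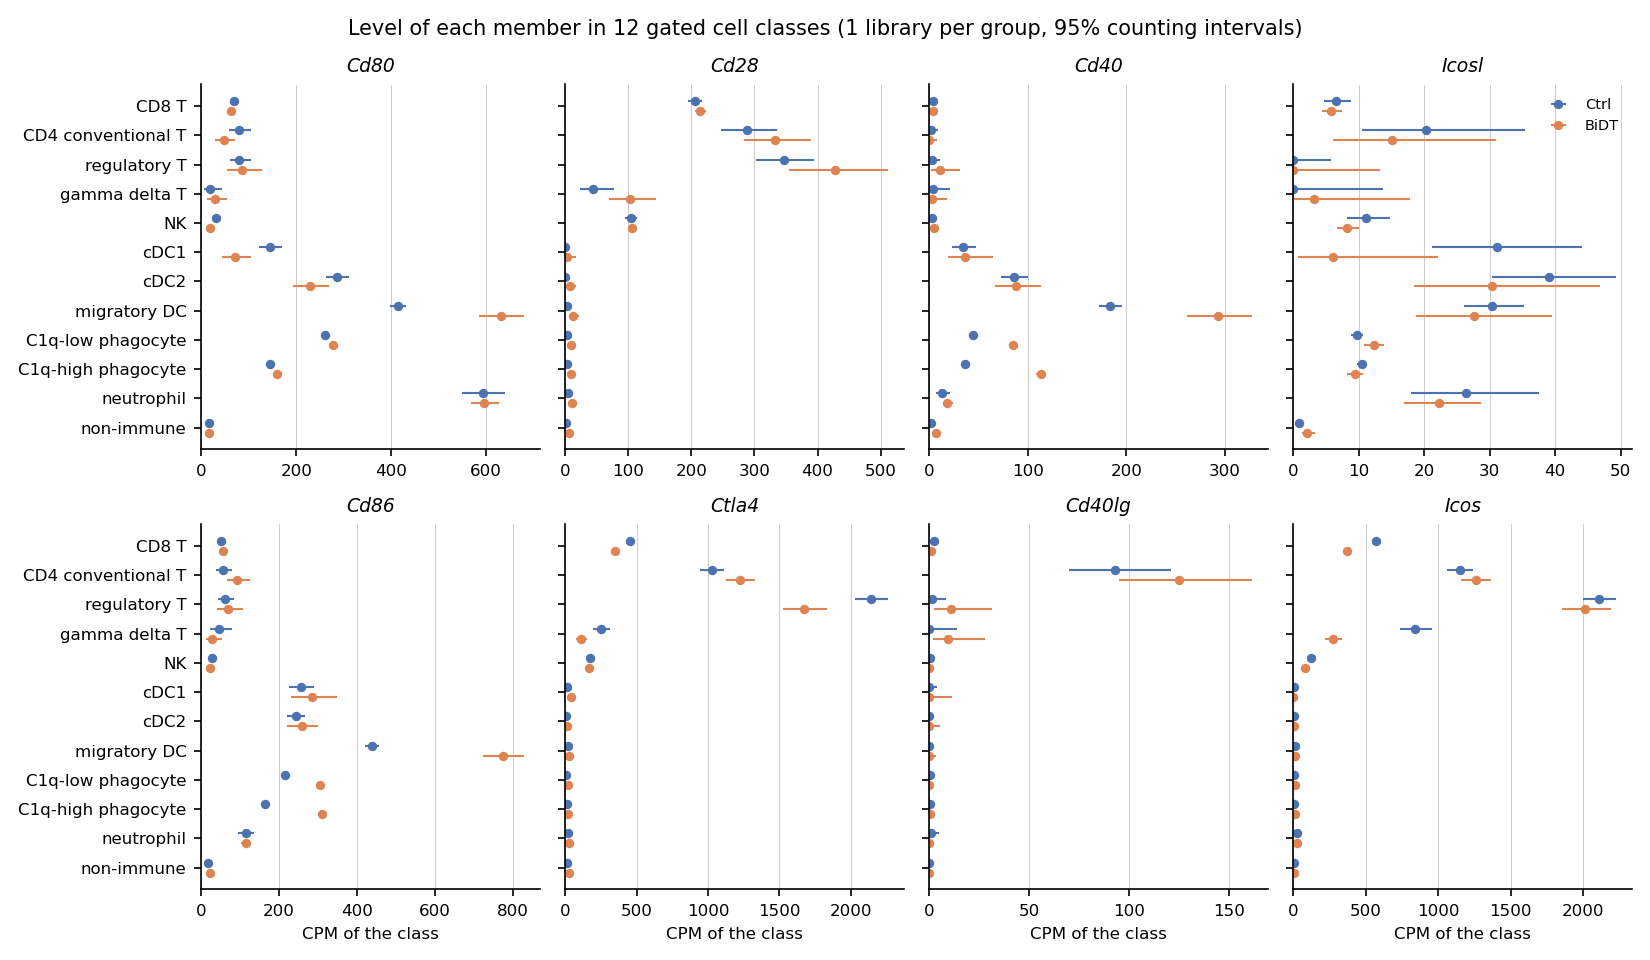
Level of each member (horizontal axis, CPM of the class, from 0) in 12 gated classes (vertical axis), Ctrl in blue and BiDT in orange, with 95% counting intervals and 1 library per group. Cd80, Cd86, Cd40 and Icosl are highest in myeloid classes and Cd28, Ctla4, Icos and Cd40lg in T cell classes. The neutrophil level of Cd80 stands above that of migratory dendritic cells in Ctrl (593.0 against 413.6 CPM) and overlaps with it in BiDT.

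Level and supply differed, because the classes differed in size. Phagocytes of both kinds held most of the Cd86 UMIs in Ctrl, with 27.4% in the C1q-low and 35.1% in the C1q-high class, and migratory dendritic cells held 7.47%. In BiDT these shares were 27.9%, 28.2% and 3.37%. The migratory class was 907 cells in Ctrl (2.98%, 2.79 to 3.18) and 317 in BiDT (0.9997%, 0.893 to 1.11), without overlap. Its Cd86 UMIs per 1000 filtered cells were 82.5 in Ctrl and 26.5 in BiDT, although its Cd86 CPM was higher in BiDT. Such a count also depends on depth, which for this class was 5332 UMIs at the median in Ctrl against 2733 in BiDT. Over all filtered cells, Cd86 was at 1104 and 785.3 UMIs per 1000 cells, while its CPM was 178.5 and 213.2. How much of the migratory difference came from class size and how much from depth was not tested. For Cd80, neutrophils supplied 1.99% of UMIs in Ctrl and 7.69% in BiDT, and neutrophils were 1.77% of Ctrl and 3.82% of BiDT cells. For Cd28, CD8 T cells supplied 38.2% in Ctrl and 34.3% in BiDT, and NK cells 12.7% and 19.6%.

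Over all filtered cells, Cd28 was 19.2 CPM in Ctrl and 55.1 in BiDT, a log2 difference of 1.52 (1.46 to 1.58), whereas in CD8 T cells it was 0.06 (-0.04 to 0.16). CD8 T cells were 5.35% of Ctrl and 7.89% of BiDT cells, and NK cells 2.40% and 7.59%. The other members over all filtered cells had log2 differences of 0.95 for Ctla4, 0.70 for Icos, 0.64 for Cd40, 0.26 for Cd86, -0.10 for Cd80 and -0.12 for Icosl. Cd40lg had 0.760 and 1.59 CPM, from 143 and 186 UMIs.

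**Figure D2:**
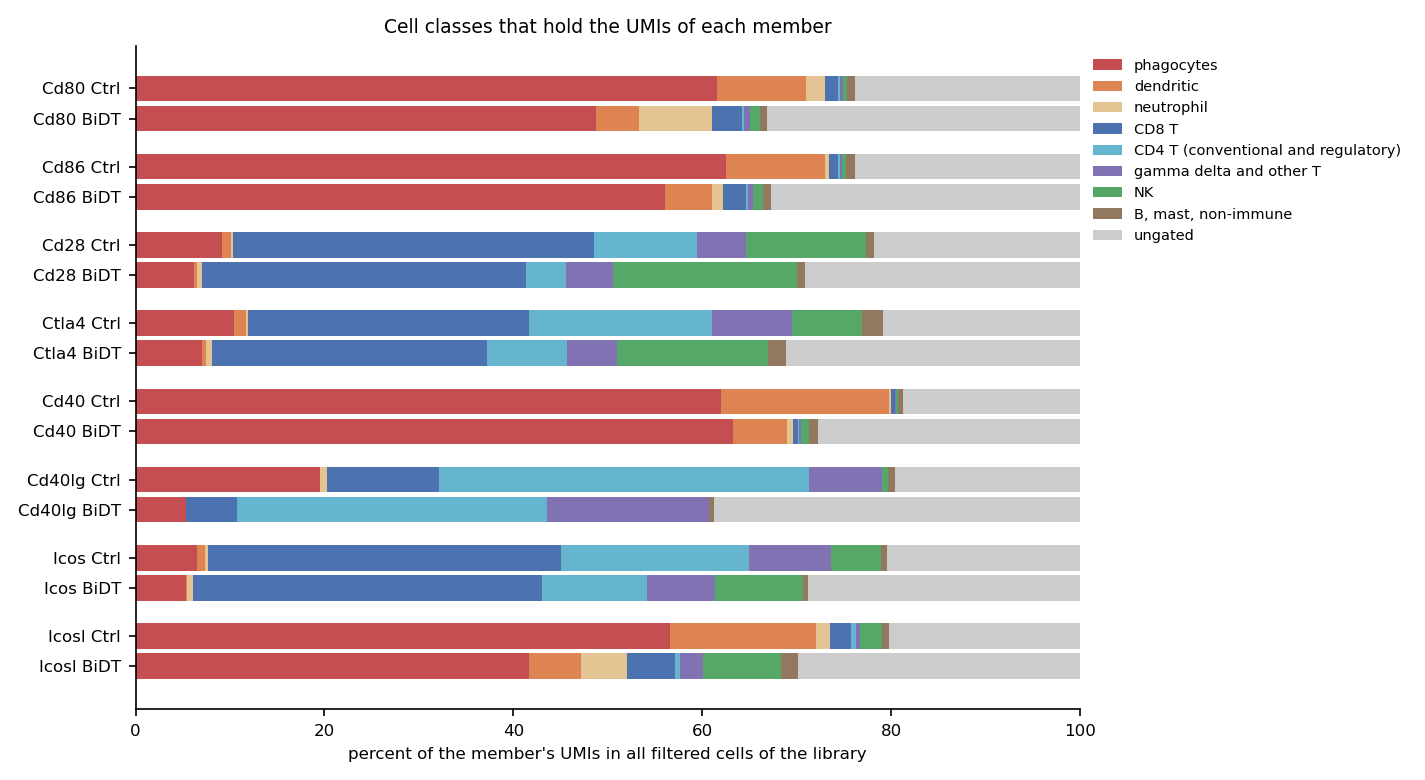
Percent of each member's UMIs in all filtered cells of a library (horizontal axis) that sits in each group of cell classes (colours), with a bar for Ctrl and a bar for BiDT per member. Phagocytes hold the largest gated part of Cd80, Cd86, Cd40 and Icosl, CD8 T cells the largest gated part of Cd28, Ctla4 and Icos, and cells without a class hold between 18.7% (Cd40, Ctrl) and 38.7% (Cd40lg, BiDT).

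Among 65 comparable pairs of member and class, 20 were at least 1.5 times higher in BiDT and 7 at least 1.5 times lower. Outside the free-RNA range there were 42 pairs, with 7 higher, 5 lower and 30 within 1.5 times. Of the 23 pairs inside that range 13 were higher, namely Cd28, Ctla4 and Icos in both phagocyte classes and in non-immune cells, Ctla4 in migratory dendritic cells and neutrophils, and Cd40 in NK and non-immune cells. The 2 lower ones were Cd80 and Icos in NK cells.

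In migratory dendritic cells the ligands and CD40 were higher together. Cd86 was 1.76 times its Ctrl level in BiDT (log2 0.82, 0.71 to 0.93), Cd40 1.60 times (0.67, 0.49 to 0.86) and Cd80 1.52 times (0.61, 0.48 to 0.73), while Icosl had a log2 difference of -0.14 (-0.75 to 0.43). The Ctrl and BiDT intervals of the first 3 genes did not overlap. Thus 3 of 4 pairs outside the free-RNA range were higher and 0 lower, in a class where 15.6% of 8328 genes were higher and 10.1% lower by the same measure. With scaling by the trimmed mean of M-values (TMM), which lowered all values of this class by 0.19, Cd80 was at 0.42 and Cd40 at 0.49, below 1.5 times, and Cd86 at 0.63. When each cell was thinned to 1000 UMIs, the share of migratory cells with a Cd86 UMI was 32.3% in Ctrl (29.3 to 35.5) and 48.3% in BiDT (42.6 to 53.9). The unthinned shares were 77.95% and 78.2%, with median depths of 5332 and 2733 UMIs, and the thinned shares of non-immune cells 1.86% and 3.31%. Cells with both a Cd80 and a Cd86 UMI were 12.6% (10.5 to 14.9) and 23.3% (18.8 to 28.4) after thinning. Among non-immune cells the latter shares were 0.207% and 0.368%. The unthinned shares of such migratory cells were 65.8% and 63.4%.

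The values of Cd86 moved with the share of Malat1 in a cell, a split that was added after the data had been seen. Of the migratory dendritic cells, 19.4% in Ctrl and 52.4% in BiDT had more than 1% Malat1. Cells at 1% or less held 393.3 CPM of Cd86 in Ctrl and 426.0 in BiDT, a log2 difference of 0.12 (-0.07 to 0.30), and cells over 1% held 890.8 and 1319 CPM (0.57, 0.39 to 0.75). Within a library, Cd86 was thus higher in the Malat1-rich cells, whose median depth was 2531 UMIs in Ctrl and 2190 in BiDT against 6265 and 3847 in the others. Cd80 was 362.7 and 466.8 CPM in cells at 1% or less (0.36, 0.19 to 0.54) and 923.5 and 885.8 in cells over 1% (-0.06, -0.26 to 0.14). Cd40 did not share this gradient. It was 181.0 and 311.2 CPM at 1% or less (0.78, 0.56 to 1.00) and 211.6 and 265.3 over 1% (0.33, -0.07 to 0.72). The gradient of Cd80 and Cd86 was not particular to presenting cells. Non-immune cells at 1% or less and over 1% held 14.5 and 96.3 CPM of Cd80 in Ctrl, and 12.9 and 47.65 in BiDT. Their Cd86 was 15.3 and 88.9 CPM in Ctrl and 17.5 and 76.0 in BiDT. In NK cells Cd86 was 23.7 and 119 CPM in Ctrl and 20.9 and 38.0 in BiDT. The part of Malat1 content in the Cd80 and Cd86 differences was not tested.

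Among the ligands and Cd40, the difference in phagocytes was largest for Cd40. C1q-high phagocytes held 36.5 CPM of Cd40 in Ctrl and 113.0 in BiDT, 3.10 times as much (log2 1.63, 1.55 to 1.71), and C1q-low phagocytes 44.8 and 84.6, or 1.89 times (0.92, 0.82 to 1.01). After thinning, 3.60% of Ctrl (3.21 to 4.03) and 9.88% of BiDT C1q-high cells (9.09 to 10.7) had a Cd40 UMI, against 0.344% and 1.01% of non-immune cells. Their unthinned shares were 20.2% and 28.0%, at median depths of 6616 and 3186 UMIs. Cd86 was 1.89 times higher in C1q-high cells (0.92, 0.88 to 0.96) and 1.43 times in C1q-low cells (0.51, 0.47 to 0.56). Cd80 differed by only 0.13 (0.08 to 0.19) and 0.09 (0.05 to 0.14), and with TMM scaling by -0.08 and -0.04. Icosl was 0.34 (0.12 to 0.56) in C1q-low and -0.16 (-0.39 to 0.06) in C1q-high cells. Outside the free-RNA range 2 of 4 pairs were higher in C1q-high cells and 1 of 4 in C1q-low cells, and with that range included 5 of 7 and 4 of 7, with 0 lower in either class. The background was 19.7% of 13214 genes higher and 13.8% lower in C1q-high cells, and 12.7% of 12449 genes higher and 7.3% lower in C1q-low cells.

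The Malat1 split separated Cd40 from Cd86 in phagocytes as well. Cells with over 1% Malat1 were 1638 of 8171 C1q-high phagocytes in Ctrl and 2304 of 5305 in BiDT (43.4%). The log2 difference of Cd40 was 1.62 (1.54 to 1.71) in cells at 1% or less and 1.75 (1.51 to 1.99) in cells over 1%, as large as in all C1q-high cells. Cd86 was 138.8 and 205.4 CPM at 1% or less (0.57, 0.51 to 0.62) and 470.9 and 599.0 over 1% (0.35, 0.27 to 0.42), so that both strata differed by less than the whole class did. For Cd80 the strata were 0.05 (-0.02 to 0.12) and -0.53 (-0.63 to -0.43). In C1q-low cells Cd40 was 0.90 (0.80 to 1.00) and 1.35 (1.06 to 1.65), and Cd86 0.21 (0.15 to 0.26) and 0.32 (0.24 to 0.40). The C1q-low values also depended on how the class was drawn. With clusters in place of gates Cd86 was 0.14 and Cd40 0.51, and with thinning before gating Cd40 was 0.44.

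**Figure D3:**
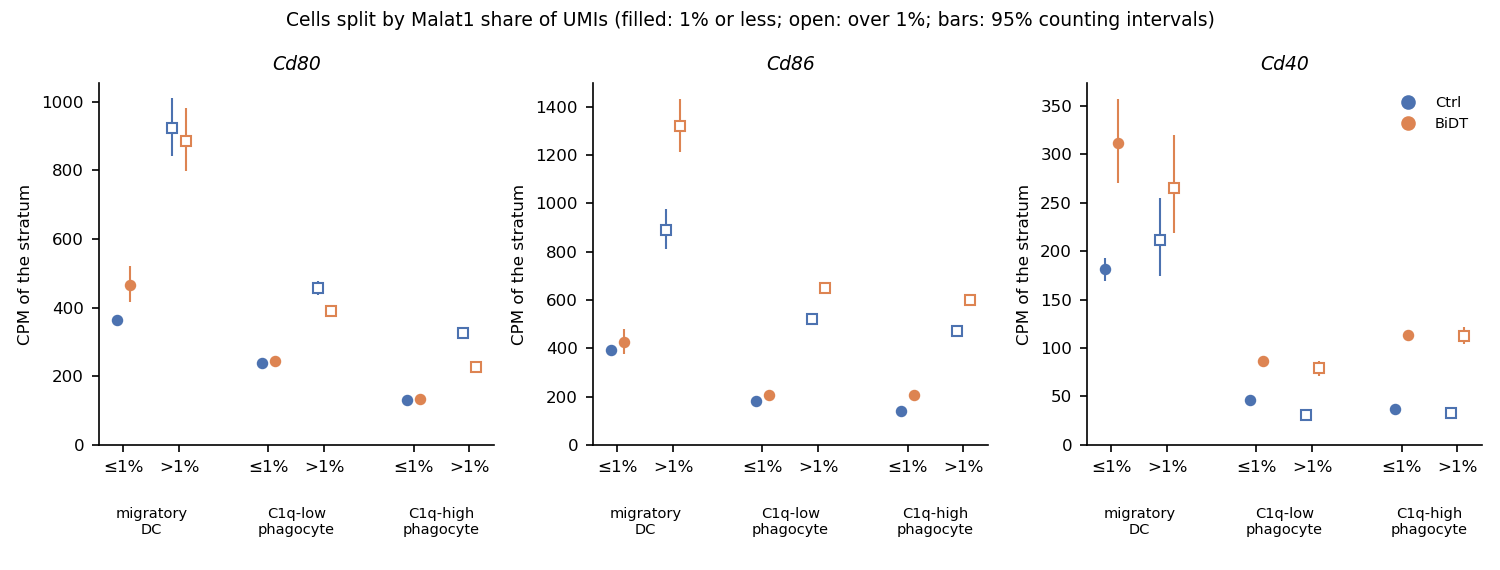
CPM (vertical axes, from 0) of Cd80, Cd86 and Cd40 in 3 classes split by the Malat1 share of a cell (horizontal axis; filled, 1% or less; open, over 1%), Ctrl in blue and BiDT in orange, with 95% counting intervals. Cd80 and Cd86 stand higher in the Malat1-rich cells of both libraries, while Cd40 of C1q-high phagocytes is near 36.8 and 33.5 CPM in Ctrl and near 113.2 and 112.5 CPM in BiDT whichever stratum is read.

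The other myeloid classes did not share this pattern. In cDC1, Cd80 was at 144.4 CPM in Ctrl and 70.5 in BiDT, 2.05 times lower (-1.03, -1.74 to -0.39), from 144 and 23 UMIs in 124 and 61 cells, while Cd86 differed by 0.16 (-0.20 to 0.51). That is 1 of 2 pairs lower and 0 higher, where 14.9% of 4055 genes were lower and 10.7% higher. After thinning, the shares of cDC1 with a Cd80 UMI were 12.9% (7.56 to 20.1) and 11.5% (4.74 to 22.2), and 2.20% and 1.56% of non-immune cells had one. The thinned shares of cDC1 thus overlapped, while the unthinned ones were 46.8% and 22.95% at median depths of 6695.5 and 4663 UMIs. In cDC2 all 4 pairs stayed within 1.5 times, with Cd80 at -0.32 (-0.59 to -0.06), Cd86 at 0.08 (-0.18 to 0.34) and Cd40 at 0.04 (-0.43 to 0.48), against 8.32% of genes higher and 9.96% lower. In neutrophils 0 of 3 pairs outside the free-RNA range passed 1.5 times, with Cd80 at 0.01 (-0.12 to 0.14) and Cd86 at -0.01 (-0.30 to 0.30), against 12.4% higher and 9.62% lower. The plasmacytoid dendritic cells, 41 and 14 cells, held 5 and 8 UMIs of Cd40 and were not compared.

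**Figure D4:**
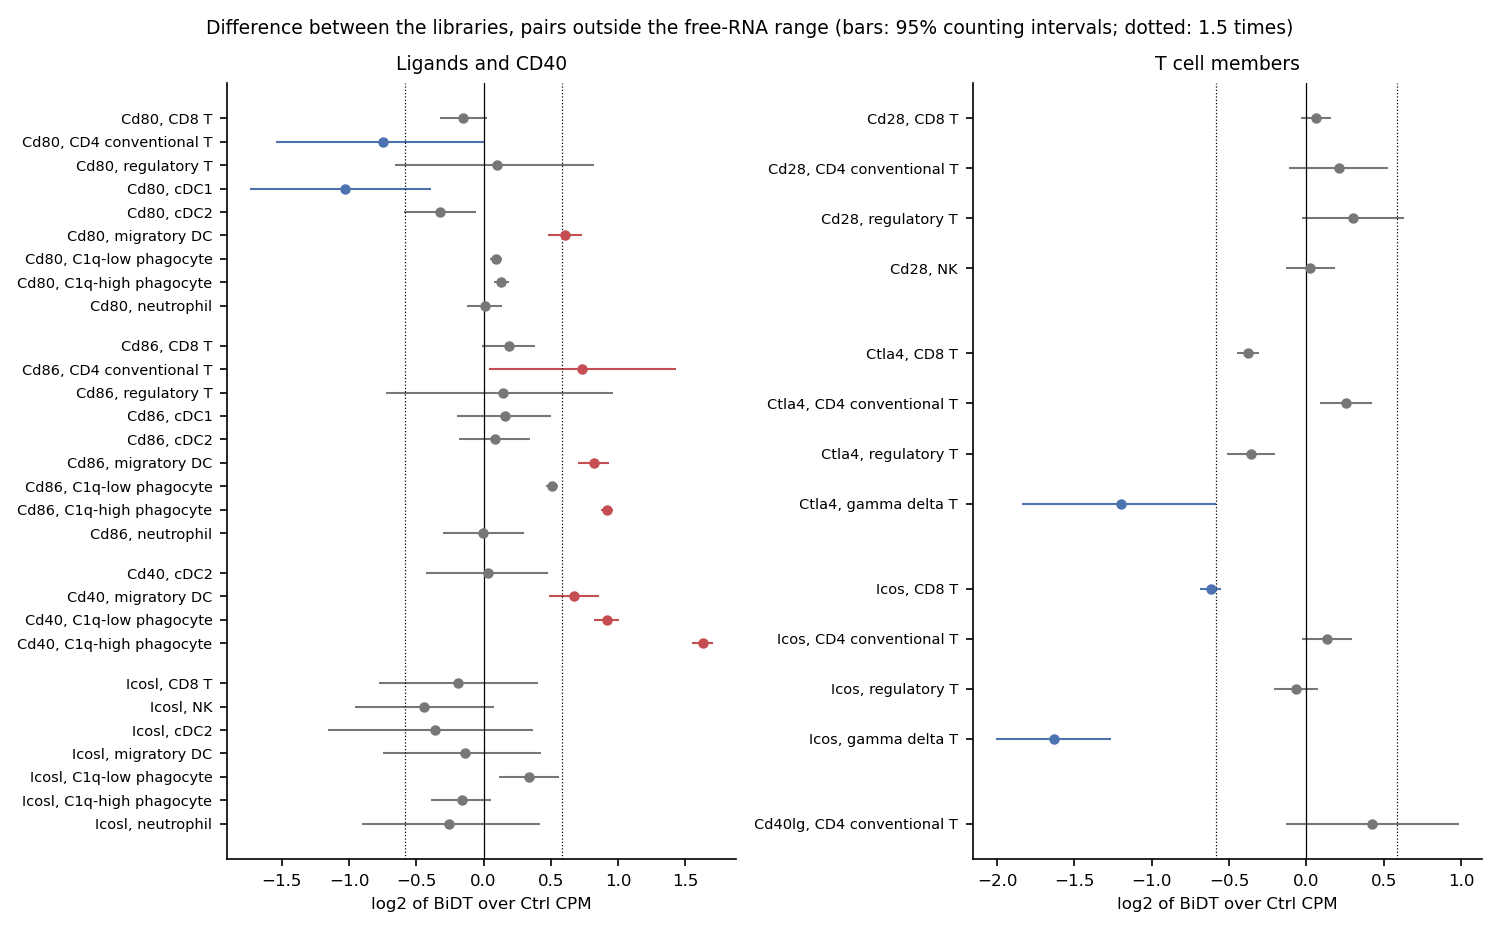
Log2 of BiDT over Ctrl CPM (horizontal axis) for the 42 pairs outside the free-RNA range, ligands and CD40 at left and T cell members at right, with 95% counting intervals and dotted lines at 1.5 times. Red marks the 7 pairs that were higher and blue the 5 that were lower, with Cd40 in C1q-high phagocytes (1.63) and Icos in gamma delta T cells (-1.63) at the ends.

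On the T cell side Icos was the member that was lower in CD8 T cells. It was 1.54 times lower (log2 -0.62, -0.69 to -0.56), while Ctla4 was within 1.5 times at -0.38 (-0.45 to -0.31) and Cd28 at 0.06 (-0.04 to 0.16). By the 1.5-fold measure 1 of 6 pairs was lower and 0 higher, where 4.44% of 10489 genes were lower and 9.41% higher. After thinning, 40.3% of Ctrl (38.0 to 42.8) and 28.5% of BiDT CD8 T cells (26.7 to 30.3) had an Icos UMI, against 0.276% and 0.551% of non-immune cells. Their unthinned shares were 70.8% and 58.2% at almost equal median depths of 3336 and 3282 UMIs. Cells with both a Ctla4 and an Icos UMI were 15.4% (13.7 to 17.2) and 10.9% (9.67 to 12.2). The Icos difference was -0.63 (-0.70 to -0.56) in CD8 T cells with Malat1 at 1% or less and -0.48 (-0.75 to -0.21) in the others. Icos was at -0.57 with clusters in place of gates and at -0.48 with thinning before gating, just under 1.5 times.

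In regulatory T cells Ctla4 was 1.28 times lower in BiDT (-0.36, -0.51 to -0.21), whereas Icos differed by -0.07 (-0.21 to 0.08) and Cd28 by 0.30 (-0.03 to 0.63). None of 5 pairs passed 1.5 times, against 10.8% of 3429 genes higher and 11.5% lower. The class held 198 cells in Ctrl and 91 in BiDT. After thinning, 71.2% of Ctrl (64.4 to 77.4) and 56.0% of BiDT regulatory T cells (45.2 to 66.4) had a Ctla4 UMI, and the unthinned shares were 87.9% and 68.1% at median depths of 2750 and 2453 UMIs. Non-immune cells had Ctla4 UMIs in 1.45% and 2.39% after thinning.

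In conventional CD4 T cells Ctla4 was within 1.5 times at 0.26 (0.09 to 0.42), and at 0.16 (-0.02 to 0.34) in cells with Malat1 at 1% or less and 1.34 (0.75 to 1.97) in the 24 and 40 other cells. The shares of cells with a Ctla4 UMI were 48.98% and 48.8% after thinning and 73.5% and 70.1% unthinned. The difference from the other T cell classes was not tested. Icos was at 0.13 (-0.03 to 0.29), Cd28 at 0.21 (-0.12 to 0.53) and Cd40lg at 0.43 (-0.13 to 0.99). Cells with a Cd40lg UMI after thinning were 7.14% (3.96 to 11.7) of Ctrl and 12.8% (8.1 to 18.9) of BiDT cells. The unthinned shares were 17.4% and 21.3% at median depths of 2641 and 2570 UMIs. The thinned intervals overlapped, and non-immune cells had 0.0689% and 0 of 1088. Among 6 pairs 1 was higher and 1 lower, beside 10.8% of 3660 genes higher and 8.99% lower. These 2 were ligands at low counts, Cd86 (33 and 43 UMIs, 0.73, 0.04 to 1.43, and -0.28 with thinning before gating) and Cd80 (47 and 22 UMIs, -0.75, -1.55 to 0.01).

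NK cells and gamma delta T cells completed the lymphoid side. In NK cells Cd28 was level (0.02, -0.13 to 0.18), and Icos was lower (123.7 and 81.2 CPM, -0.61, -0.76 to -0.45) inside the free-RNA range. That range is set by the highest class, here regulatory T cells, and non-immune cells held 3.48 and 5.92 CPM of Icos. The part of free RNA in the NK level was not tested. Counting all pairs, 1 of 7 was higher, Cd40 from 12 and 56 UMIs (0.79, -0.13 to 1.83, and -1.06 with thinning before gating), and 2 lower, Icos and Cd80 (-0.69, -1.01 to -0.37), where 11.6% of genes were higher and 4.97% lower. Gamma delta T cells, 86 in each library, had 839.5 CPM of Icos in Ctrl and 270.9 in BiDT (-1.63, -2.01 to -1.27) and 248.9 and 108.4 CPM of Ctla4 (-1.20, -1.84 to -0.58). Both of 2 pairs were lower and 0 higher, where 12.6% of 2008 genes were lower and 12.6% higher. The makeup of this class moved with the result: Il17a was 1668 and 344 CPM and Trdv4 263.7 and 63.7. With clusters in place of gates Icos was at 0.20 and Ctla4 at -0.37. After thinning, 41.9% (31.3 to 53.0) of Ctrl and 24.4% (15.8 to 34.9) of BiDT cells had an Icos UMI, and 13.95% (7.42 to 23.1) and 12.8% (6.56 to 21.7) a Ctla4 UMI, so that the intervals overlapped for both genes. The unthinned shares were 67.4% and 43.0% for Icos and 31.4% and 26.7% for Ctla4, at median depths of 2267 and 2678.5 UMIs. The part of the makeup of the class in the differences was not tested.

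The balance of 2 receptors or ligands in the same cells does not depend on the total used for scaling. Ctla4 to Cd28 UMIs were 2.21 in Ctrl (2.07 to 2.35) and 1.63 in BiDT (1.54 to 1.72) in CD8 T cells, a log2 change of -0.44 (-0.56 to -0.32). In regulatory T cells they were 6.19 (5.37 to 7.16) and 3.92 (3.19 to 4.83), a change of -0.66 (-1.02 to -0.29), and in conventional CD4 T cells 3.56 and 3.68 (0.05, -0.32 to 0.41). Icos to Cd28 changed by -0.68 (-0.80 to -0.56) in CD8 T cells, -0.37 (-0.73 to -0.01) in regulatory T cells and -0.63 (-0.85 to -0.41) in NK cells. The ligand balance moved toward Cd86, and not in presenting cells alone. The log2 change of Cd86 to Cd80 was 0.45 (0.04 to 0.85) in non-immune cells, which should lack both. It was 0.48 (0.03 to 0.94) in NK cells, 0.34 (0.07 to 0.60) in CD8 T cells and -0.01 (-0.34 to 0.32) in neutrophils. Cd86 to Cd80 went from 1.14 to 1.96 in C1q-high phagocytes (0.79, 0.72 to 0.86), from 0.823 to 1.10 in C1q-low phagocytes (0.42, 0.36 to 0.48) and from 1.06 to 1.23 in migratory dendritic cells (0.21, 0.04 to 0.38). With Malat1 at 1% or less these changes were 0.52, 0.17 and -0.25, so that the migratory value turned. Cd40 to Cd80 changed by 1.497 (1.40 to 1.59) in C1q-high phagocytes and by 0.07 (-0.16 to 0.29) in migratory dendritic cells, where both genes were higher.

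Cd28, Ctla4 and Icos also appeared in phagocytes and non-immune cells, at low levels that were higher in BiDT. In C1q-high phagocytes Cd28 was 2.73 CPM in Ctrl and 9.17 in BiDT (1.75, 1.46 to 2.04), Ctla4 9.88 and 19.6 (0.98, 0.81 to 1.16) and Icos 5.50 and 12.4 (1.17, 0.95 to 1.40). The 4 T markers summed to 13.0 CPM in Ctrl and 44.05 in BiDT in the same cells (1.76), with 0 of the 4 at 0 UMIs in either library. Relative to T cells, Cd28 stood at 1.23% and 4.09%, Ctla4 at 1.56% and 4.67%, Icos at 0.747% and 2.77%, and the marker sum at 0.580% and 1.996%. C1q-low phagocytes had log2 differences of 1.43 for Cd28, 1.16 for Ctla4 and 0.87 for Icos beside 1.49 for the markers, and non-immune cells 1.83, 1.06 and 0.76 beside 1.64. Non-immune cells had 4 of 6 pairs higher and 0 lower, all in the free-RNA range, where 18.1% of 12193 genes were higher and 4.08% lower. In phagocytes and non-immune cells the 3 members and the T markers were thus higher together, and the members stood at a larger percent of the T cell level than the markers did. In neutrophils and migratory dendritic cells the markers were at 1.23 and 1.65. There the members differed among themselves, with Icos at -0.01 (-0.68 to 0.69) and 0.24 (-0.67 to 1.06). Ctla4 was at 0.69 (-0.01 to 1.44) and 0.64 (0.03 to 1.23). Cd28 was at 1.43 (0.05 to 3.15) and 1.88 (0.79 to 2.94). Its counts, 5 and 30 UMIs in neutrophils and 20 and 14 in migratory cells, were below the minimum for a comparison. The part of free RNA in these levels was not tested. The 2 libraries also differed in how many T and NK cells they held, as given above.

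**Figure D5:**
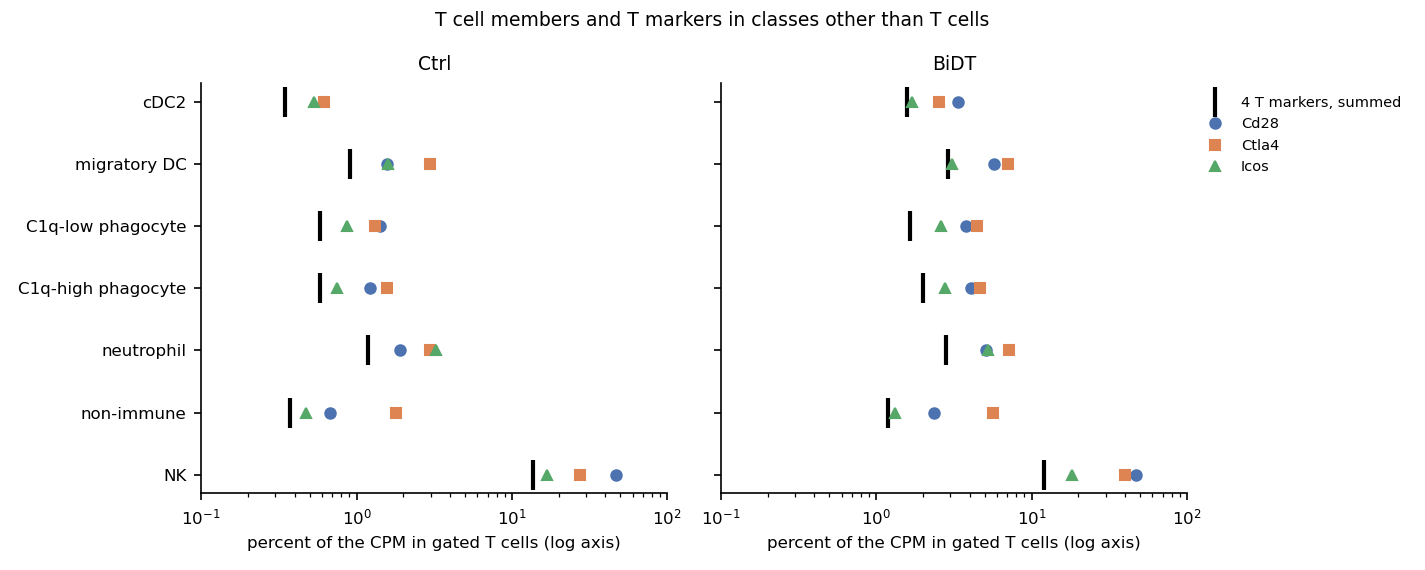
Level of Cd28, Ctla4 and Icos and of 4 summed T markers (bars) as percent of the level in gated T cells (horizontal log axis) in 7 classes, Ctrl at left and BiDT at right; Cd28 of cDC2 in Ctrl, at 0 UMIs, is not drawn. In the 6 classes other than NK cells the markers stand between 0.348% and 1.18% in Ctrl and between 1.19% and 2.88% in BiDT, and the members stand further right in BiDT as well. A percent also depends on the T cell level of its library. Icos of neutrophils stands at 3.24% and 5.28%, although its level was 23.9 and 23.7 CPM.

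Cd80 and Cd86 were also counted in cells gated as T cells. In CD8, conventional CD4 and regulatory T cells they stood at a larger percent of the phagocyte level than phagocyte markers. Cd80 in CD8 T cells was 69.3 CPM in Ctrl and 62.5 in BiDT, or 36.9% and 28.6% of the phagocyte level, and Cd86 was 50.03 and 56.9 CPM, or 27.3% and 18.5%. The 4 phagocyte markers Lyz2, Apoe, Fcer1g and Ctss summed to 5.90% and 5.95% of the phagocyte level in those cells. Conventional CD4 T cells held Cd80 at 42.2% and 21.7% and Cd86 at 30.4% and 30.0%, beside markers at 8.52% and 8.31%. Regulatory T cells held Cd80 at 42.8% and 39.5% and Cd86 at 33.8% and 22.1%, beside markers at 9.02% and 13.5%. In NK cells, by contrast, Cd80 stood at 16.1% and 8.57% and Cd86 at 14.5% and 7.46%, near or below the markers at 16.4% and 13.5%. In gamma delta T cells Cd80 stood at 9.88% and 13.1%, beside markers at 11.95% and 12.5%. Their Cd86 stood at 24.4% and 9.31%, from 12 and 9 UMIs. Cd80 and Cd86 of CD8 T cells differed between the libraries by -0.15 (-0.32 to 0.02) and 0.19 (-0.01 to 0.38). Cd40 was 4.31 and 3.58 CPM in CD8 T cells, 10.9% and 3.63% of the phagocyte level. In Ctrl, Cd80 was 66.3 CPM in CD8 T cells with Malat1 at 1% or less and 139 in those over 1%. It was 66.0 and 233.7 in regulatory and 80.6 and 68.0 in conventional CD4 T cells. Phagocytes were not the highest class for Cd80: neutrophils stood at 315.6% and 273.1% of their level and migratory dendritic cells at 220.1% and 288.7%. The part of free RNA in the T cell levels of Cd80 and Cd86 was not tested.

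Genes around the members were read from 6 lists, described by counts beside the same classes' shares of all genes given above. In migratory dendritic cells the median log2 difference of 18 CD40 signalling genes was 0.45, against 0.05 over all genes, with 3 higher and 0 lower: Tank (0.82), Birc2 (0.74) and Traf3 (0.73), an adaptor, a ubiquitin ligase and the factor that restrains the noncanonical NF-kappa-B kinase. Genes known to respond to CD40 were 6 higher and 1 lower of 14 measured. Ccl22 on this list was also part of the gate of this class, so its level there was partly set by the gate. Il6, an inflammatory cytokine, was at 1.37 and Il15, a cytokine that sustains CD8 T and NK cells, at 1.00, while Bcl2a1d, a survival gene, was at -0.62. In C1q-high phagocytes the CD40 signalling list had a median of 0.39 against 0.08, with 4 of 18 higher and 0 lower. These were Traf2 (0.94), an adaptor of CD40, Tank (0.93), Relb (0.66), the noncanonical NF-kappa-B subunit, and Traf3 (0.63). The CD40-responsive list was mixed in those cells, with 5 higher and 3 lower of 14. Il15 was at 2.72 (6.57 and 43.4 CPM), its receptor chain Il15ra at 1.28 and Cflar, which restrains cell death, at 0.72. Il12a (0.99) and Il12b (0.96), the chains of interleukin 12, were below 2 CPM in both libraries. Bcl2a1d was at -0.60, and Ccl17 and Ccl22, ligands of CCR4, at -2.02 and -1.42 inside the free-RNA range. C1q-low cells had 0 of 18 CD40 signalling genes past 1.5 times and a median of 0.22.

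In CD8 T cells the CD28 and ICOS signalling list was near the background, with a median of 0.03 against 0.04 and 1 higher and 1 lower of 21. Rel, an NF-kappa-B subunit downstream of CD28, was lower (-0.60), and Maf, a factor downstream of ICOS, was higher (0.71) inside the free-RNA range. In regulatory T cells Rel was also lower (-0.73), while Bcl2l1 (0.76), a survival gene, and Pik3r1 (0.74), a regulatory subunit of PI3 kinase, led 3 higher genes of 18, with Maf at 0.60. The CTLA4 handling list had 0 of 6 past 1.5 times in CD8 T cells and 1 of 5 in regulatory T cells, Dennd1b (0.59), and Lrba, which returns CTLA4 to the cell surface, was at -0.05. Of the other B7 and CD28 family, Pdcd1 was lower in regulatory T cells (119.0 and 61.0 CPM, -0.96, -1.81 to -0.19) and at -0.22 in CD8 T cells. Cd274, which encodes PD-L1, was at 1.55 in C1q-high and 0.80 in C1q-low phagocytes and at 0.65 in migratory dendritic cells. In C1q-high phagocytes this family had 3 higher and 2 lower of 8, with 2 of the 8 in the free-RNA range. C1q-low phagocytes had 2 higher and 0 lower of 8, and migratory dendritic cells 2 higher and 0 lower of 5. Of the ubiquitin ligases and proteases that turn these proteins over, Cblb was at 1.08 in C1q-high phagocytes and Adam10, a sheddase, at -0.65, while 0 of 6 passed 1.5 times in CD8 T cells.

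Across the 12 classes and 2 libraries, 24 points that share libraries, the profiles of Cd28, Ctla4 and Icos in log2(CPM + 1) were alike, with Pearson correlations of 0.95 for Cd28 and Ctla4, 0.94 for Cd28 and Icos and 0.93 for Ctla4 and Icos. Cd86 correlated at 0.87 with Cd40 and 0.83 with Cd80. Among 11958 other genes, the nearest profiles were Lck (0.98) and Gimap4 (0.97) for Cd28, Tigit (0.97) and Tox (0.96) for Ctla4, and Rora (0.98) and Zdhhc18 (0.96) for Icos. For Cd86 they were Slc8a1 (0.95) and Irf5 (0.94), for Cd80 Mcemp1 (0.93) and Gabarap (0.93), and for Cd40 Tmem51 (0.95) and Cxcl16 (0.92). Cd40lg, which rests on few UMIs, was nearest to the type 2 cytokines Il5 (0.89) and Il13 (0.85), and Icosl to Ifitm2 (0.84) and Prr5l (0.82).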

How the data were processed

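For each of 2 libraries the authors deposited a matrix of UMI counts, whole numbers without normalization. The submitters' processing notes list Cell Ranger 7.1.0 and the build GRCm39. The barcodes have a form that Cell Ranger does not write, so the counter is uncertain. No coordinates of that build are given, and promoters come from RefSeq for GRCm38.p6.

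Cells needed 300 genes, 500 UMIs and a mitochondrial share of no more than 10%, a limit that removed 1702 Ctrl and 572 BiDT cells. The doublet caller Scrublet (scanpy 1.11.5) called 0 cells at its own thresholds and had not worked, so cells scoring 0.15 or more were removed, 2220 in Ctrl (6.47%) and 2714 in BiDT (7.76%). A cell entered a class with at least 2 UMIs of a lymphoid panel, or 3 of a myeloid or non-immune panel, and every other panel at 1 UMI or 25% of its own at most. Phagocytes were split at 10 C1q UMIs per 10000 UMIs, with 2614 of 15938 Ctrl and 1889 of 11230 BiDT phagocytes within 2 times of the cut, and such a class is a range and not a type.

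UMIs were summed per class and library and scaled to CPM. CPM have exact Poisson intervals, log2 ratios exact conditional binomial ones and shares of cells Clopper-Pearson ones, for cells thinned to 1000 UMIs, which left out 0 cells. There was no test. In data simulated for CD8 T cells, migratory dendritic cells and C1q-high phagocytes, 200 of 200 genes changed by 3 times were recovered in each. A change of 3 times is far past the 1.5-fold measure. The simulation therefore does not show how differences near 1.5 times, or those in the other classes, would be recovered. All members are named, and of each list the 2 highest and 2 lowest past 1.5 times, with some others named after their values were seen. The other B7 and CD28 family is an exception, where not all such genes are named. The members, lists, gates and doublet score were chosen with earlier results of these data known. Versions were pandas 2.3.3, scipy 1.17.1, igraph 0.11.9, numpy 2.4.6 and Python 3.11.15.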

Additional observations from a re-analysis of the deposited data

Results flagged for a closer look

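Cd80 moved in opposite directions in 2 kinds of dendritic cell. In cDC1 its log2 difference of BiDT over Ctrl was -1.03 (-1.74 to -0.39), from 144 and 23 UMIs, and in migratory dendritic cells it was 0.61 (0.48 to 0.73), from 2366 and 683 UMIs. With 1 library per group this difference between the classes was not tested. In migratory cells the value was 0.36 among cells with Malat1 at 1% or less and 0.42 with TMM scaling. Among migratory cells over 1% Malat1 it was -0.06 (-0.26 to 0.14), so that Cd80 was not higher there. In cDC1 it ranged from -1.17 to -0.94 over 7 settings. In the 105 and 41 cDC1 with Malat1 at 1% or less, too few in BiDT to count among those settings, it was -1.53 (-2.52 to -0.67), from 125 and 12 UMIs. The shares of cDC1 with a Cd80 UMI after thinning were 12.9% and 11.5%, with overlapping intervals.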

How the results depend on the processing

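The log2 ratios were recomputed over 10 settings, 8 planned and 2 chosen after seeing the data (Malat1 at 1% or less, and no shared barcodes). Of the 27 pairs past 1.5 times, 13 stayed past it in every setting with a value, and 4 reversed in at least 1. Most of the 13 lay inside the free-RNA range. Those outside it were Cd40 in C1q-high phagocytes, Cd80 in cDC1 and Cd80 in conventional CD4 T cells. In migratory dendritic cells Cd80 stayed past 1.5 times in 5 of 10 settings, and Cd86 and Cd40 in 9 each. The count of pairs higher in BiDT, 20, became 11 with every other panel at 0 UMIs, 9 with cells thinned before gating and 31 with no minimum of UMIs. The count lower, 7, became 3, 2 and 11 under the same settings and 4 with clusters in place of gates. Fewer pairs could be compared in the first 2 of these, 40 and 29 of 65, and 84 without a minimum. Thinning before gating turned Cd86 in conventional CD4 T cells to -0.28, Cd40 in NK cells to -1.06 and Ctla4 in migratory dendritic cells to -0.69. Clusters turned Icos in gamma delta T cells to 0.20, and panels at 0 turned the change of Ctla4 to Cd28 in non-immune cells to 1.20, and the cause was not tested. A minimum of 1000 UMIs per cell removed 0 cells and changed nothing. Unthinned shares moved beyond the thinned intervals in 126 of 130 cases. Depth limits the rare classes, where a pair can pass 1.5 times with an interval that includes 0, as Cd80 in conventional CD4 T cells did. No paired analysis was possible because each group is 1 library.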
